A study of Mus musculus with 2 samples.

Results

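The 10 genes described here form the transcriptional end of the Hippo pathway: the co-activator genes Yap1 and Wwtr1 (which encodes TAZ), the DNA-binding partner genes Tead1, Tead2, Tead3 and Tead4, the kinase genes Lats1 and Lats2, and Amotl2 and Ctgf, a pair of genes used as readouts of YAP and TAZ. They were picked by symbol and not by their values, and all 10 are among the 13620 genes of the deposited table. Polyadenylated RNA was sequenced from mouse embryonic stem (ES) cells, with 1 wild-type (WT) library and 1 library of the Fbxl10 T/T genotype, both of strain C57BL/6J and both grown with serum and leukemia inhibitory factor on inactivated fibroblast feeders that were depleted before use. The labels give neither the nature of the T allele of Fbxl10 (now Kdm2b, a CpG island-binding Polycomb protein) nor the number of clones or cultures behind a library, and with 1 library per genotype no difference between the genotypes could be tested. "Higher" and "lower" therefore describe these 2 libraries.

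In the Hippo pathway a kinase cascade ending in LATS1 and LATS2 phosphorylates YAP and TAZ, which are then held in the cytoplasm or degraded. When the kinases are inactive, YAP and TAZ enter the nucleus, bind TEAD proteins and raise transcription of target genes, among them Ctgf, which encodes a secreted matrix-associated protein, and Amotl2, whose angiomotin-like product binds YAP and restrains it. In the early mouse embryo TEAD4 with nuclear YAP starts the trophectoderm programme in outer cells. RNA levels measure neither the phosphorylation nor the location of YAP and TAZ.

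TEAD proteins recognise the element GGAATG, or CATTCC on the other strand, and the stretches below show where these letters lie before the start sites of members and of Cyr61, another classical target (now Ccn1, chosen after its value was seen). They are RefSeq sequences of GRCm38.p6, 60 bases each, 5′ to 3′ on the gene's strand, with the element in capitals. They lie at chr9:102717712-102717771 (plus strand) for Amotl2, chr9:8004705-8004764 (minus strand) for Yap1, chr3:57576014-57576073 (minus strand) for Wwtr1, chr17:28350955-28351014 (minus strand) for Tead3 and chr3:145650056-145650115 (minus strand) for Cyr61.
Amotl2: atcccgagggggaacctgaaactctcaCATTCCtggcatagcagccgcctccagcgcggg
Yap1: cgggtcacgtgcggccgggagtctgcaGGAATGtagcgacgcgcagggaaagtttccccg
Wwtr1: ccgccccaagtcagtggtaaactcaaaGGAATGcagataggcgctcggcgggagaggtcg
Tead3: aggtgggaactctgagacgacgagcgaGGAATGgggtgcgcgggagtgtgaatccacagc
Cyr61: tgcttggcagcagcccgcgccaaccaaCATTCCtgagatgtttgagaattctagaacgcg

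The element starts 65 bases before the first listed start site in Amotl2, 141 in Yap1, 136 in Wwtr1, 182 in Tead3 and 103 in Cyr61. The same Wwtr1 element lies 170 bases before a second listed start, and Tead3 has 2 more elements, at 123 and 114 bases before its second listed start (not shown). Of the 7 members with a sequence in the RefSeq promoter table, 4 held it in the 250 bases before a listed start site, and no match was found for Tead2, Lats1 and Lats2. Tead1, Tead4 and Ctgf had no entry. Of all 32851 promoter windows of that length, 12.6% held the element on either strand, so a match of 6 letters is common and is a description of the sequence only. That share is per window, whereas the members were counted as genes, some with several windows, so the 2 are not like for like.

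Reads over the listed genes numbered 21198574 for wild type and 27109446 for T/T. Levels are normalised CPM, read counts per 1000000 of an effective library size, and each member had between 167 and 7490 reads in a library. Kdm2b had 102.5 CPM in the wild-type library against 10.6 CPM in T/T, 9.66-fold lower (8.50- to 11.0-fold). All ranges in parentheses are exact 95% intervals that cover counting error only. The labelled cell type was checked against 9 ES cell markers. Of these, 7 were at least 2-fold lower in T/T (77.8%, against 20.6% of all genes) and none higher (against 14.8%). Their summed levels were 5758 CPM in wild type and 1063 CPM in T/T. All 12 primitive endoderm markers were at least 2-fold higher in T/T (against 14.8% of all genes). Their sums were 6872 and 64399 CPM, so the T/T library went against its ES cell label in part. In bulk RNA, fewer cells of a type and less RNA per cell cannot be told apart.

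Most Hippo transducers were at similar levels in both libraries, and the largest differences were in the TEAD family. Of the 10 members, Tead4 was at least 2-fold higher in Fbxl10 T/T, Tead1 was at least 2-fold lower and 8 lay in between, on the log2(CPM + 0.5) scale used for counts, which understates the change of low genes. Among all 13512 genes at 1 CPM or more in a library, 14.8% were 2-fold higher and 20.6% were 2-fold lower. Among the 10986 genes at 5 CPM or more, a class that holds all 10 members, these shares were 16.6% and 15.8%, so the members' 10% in each direction was not above the background. The median log2 ratio (T/T over wild type) was 0.22 over the members and 0.02 over all genes. Other scalings of the libraries lowered every log2 ratio by 0.19 (common median), 0.24 (common upper quartile) or 0.31 (plain CPM), slightly less for low genes. With plain CPM Tead3 also passed the 2-fold line, giving 1 member higher and 2 lower. The counts over all genes went from 1994 higher and 2781 lower to 1435 and 3254 with the upper quartile and to 1310 and 3405 with plain CPM.

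**Figure D1:**
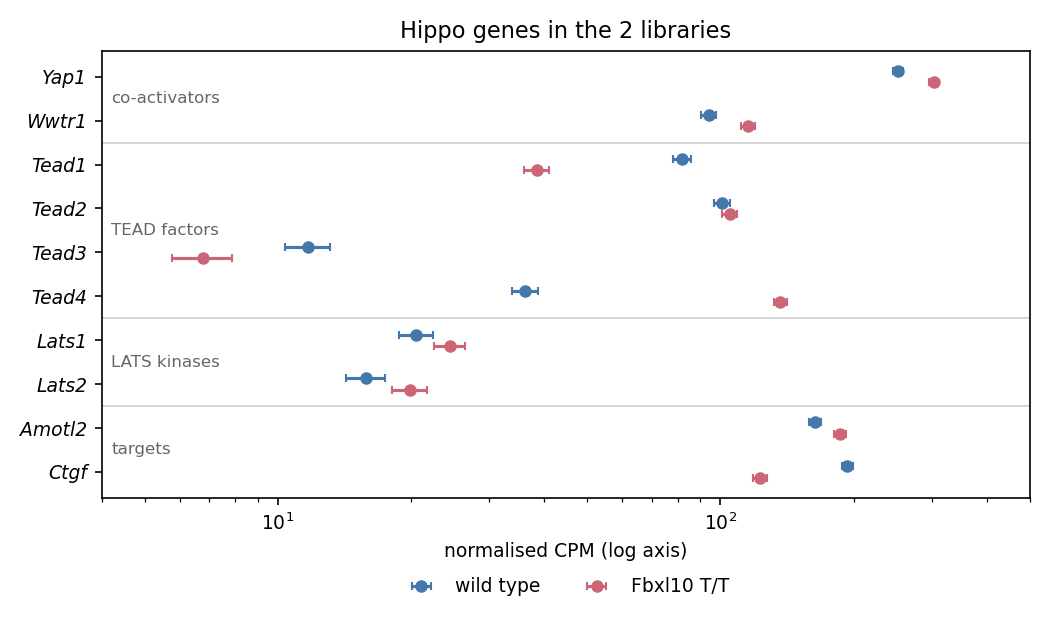
Normalised CPM (log axis) of the 10 Hippo genes in wild type and Fbxl10 T/T, 1 library each, with exact 95% counting intervals as bars. Tead1 and Tead4 lie far apart between the libraries and in opposite directions, whereas the points of Yap1, Wwtr1, Tead2, Lats1, Lats2 and Amotl2 lie close together.

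The co-activator genes were at nearly the same levels in both libraries. Yap1 (ENSMUSG00000053110, chr9:7931999-8004594 in mm9, as are all coordinates of genes here) was at 252.0 CPM in wild type and 303.4 CPM in T/T. That is 1.20-fold higher (1.16- to 1.25-fold). Wwtr1 (ENSMUSG00000027803, chr3:57259571-57379832) was at 94.0 and 115.3 CPM, 1.23-fold higher (1.16- to 1.30-fold). The counting intervals of the libraries did not overlap for either gene, but the log2 ratios of 0.27 and 0.29 became -0.04 and -0.01 with plain CPM, so the direction depended on the scaling. The ratio of Yap1 to Wwtr1 reads is free of the scaling and was 2.68 in wild type and 2.63 in T/T, a change of 0.98-fold (0.92- to 1.05-fold).

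Among the DNA-binding partners the makeup differed strongly. Tead4 (ENSMUSG00000030353, chr6:128177161-128250831) was at 36.2 CPM in wild type and 136.4 CPM in T/T, from 864 and 3367 reads. It was 3.77-fold higher (3.50- to 4.07-fold), and 589 of the 13512 genes (4.36%) had a larger log2 ratio. Tead1 (ENSMUSG00000055320, chr7:119822871-120043504) was at 81.9 CPM in wild type and 38.5 CPM in T/T, from 1956 and 950 reads. It was 2.13-fold lower (1.97- to 2.30-fold), and 19.3% of all genes had a smaller ratio. The counting intervals of the libraries lay well apart for both genes, and both stayed past the 2-fold line, on the same side, under all 3 scalings. Tead3 (ENSMUSG00000002249, chr17:28468620-28487545), the lowest of the family, was at 11.7 and 6.76 CPM, 1.73-fold lower (1.42- to 2.10-fold). Tead2 (ENSMUSG00000030796, chr7:52471162-52489005) was at 100.7 and 105.0 CPM, with counting intervals of 96.8 to 104.9 and 101.0 to 109.1 CPM that overlapped. Its log2 ratio of 0.06 became -0.13 to -0.25 under the 3 other scalings.

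Compared within each library, where scaling plays no part, the ratio of Tead4 to Tead1 reads went from 0.44 in wild type to 3.54 in T/T, 8.02-fold higher (7.19- to 8.95-fold). Tead4 to Tead2 went from 0.36 to 1.30, 3.62-fold higher (3.29- to 3.98-fold). Tead3 to Tead1 was 0.14 and 0.18, a change whose interval of 0.996- to 1.52-fold included no change. Tead4 to Tead3 went from 3.10 to 20.2, 6.51-fold higher (5.27- to 8.05-fold), so Tead4 gained on each of the other family members beyond counting error.

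Levels of different genes were compared per kb of exon (union of the exons in GENCODE M21). In wild type the order within the family was Tead2 at 21.04 CPM per kb, Tead4 at 10.1, Tead1 at 6.04 and Tead3 at 1.74. In T/T it was Tead4 at 37.9 CPM per kb, Tead2 at 21.9, Tead1 at 2.84 and Tead3 at 1.01. Tead4 made up 25.9% of the family's summed level per kb in wild type and 59.5% in T/T, and Tead2 54.1% and 34.4%. The share of Tead1 was 15.5% and 4.45%. With the length of the longest coding transcript instead, chosen after the data were seen, the share of Tead4 was 21.8% and 54.4%, and the order within the family was the same. The family's summed level was 38.9 CPM per kb in wild type and 63.7 in T/T. Without length the sums were 230.5 and 286.6 CPM, 1.24-fold higher. Both differences become smaller under the other scalings, which lowered log2 ratios by 0.19 to 0.31. With plain CPM, which lowered them by 0.31, the 1.24-fold difference nearly vanishes.

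**Figure D2:**
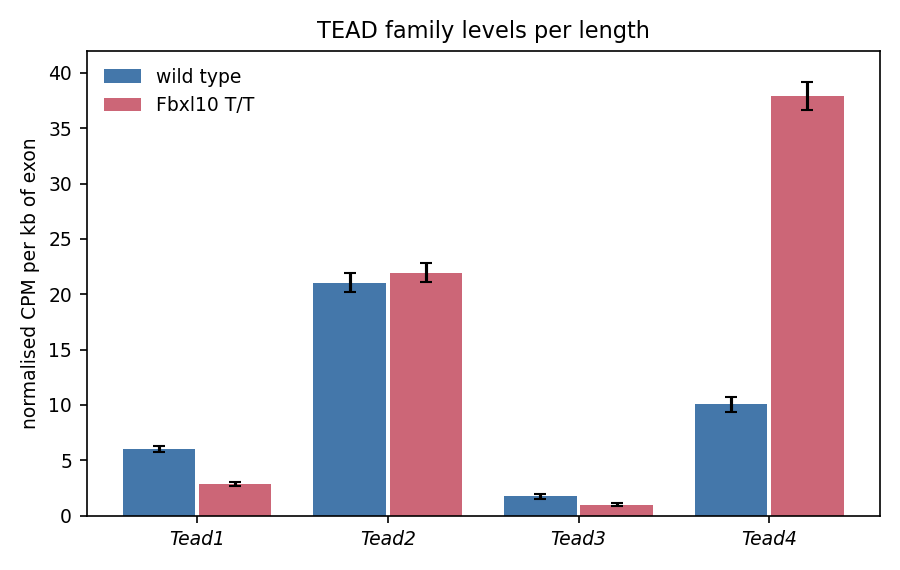
Levels of the 4 TEAD genes in normalised CPM per kb of exon, for wild type and Fbxl10 T/T (1 library each). Bars start at 0 and error bars are exact 95% counting intervals. Tead2 is the highest in wild type (21.04) and Tead4 in T/T (37.9), while Tead2 itself has nearly the same height in both.

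Because TEAD4 is known for its role in the trophectoderm, markers of trophoblast are given beside it. Of 8 listed markers 5 were at least 2-fold lower in T/T (62.5%, against 20.6% of all genes) and 3 higher (37.5%, against 14.8%). Cdx2, a trophectoderm factor gene downstream of TEAD4 in the embryo, was at 6.28 CPM in wild type and 0.324 CPM in T/T. Krt7 was at 30.7 and 0.770 CPM and Tfap2c at 76.2 and 4.01 CPM. The higher markers were the simple epithelial keratin genes Krt8 (295.1 and 1102 CPM) and Krt18 (345.2 and 936.4 CPM) and Plet1 (40.9 and 130.6 CPM). Of 9 trophoblast markers 8 were listed, and none of the listed ones was at 0, which says nothing of a marker that was not listed.

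The genes of the kinases that restrain YAP and TAZ differed little. Lats1 (ENSMUSG00000040021, chr10:7411265-7433133) was at 20.6 CPM in wild type and 24.4 CPM in T/T, 1.19-fold higher (1.05- to 1.34-fold). Lats2 (ENSMUSG00000021959, chr14:58308500-58364960), itself a target of YAP, was at 15.8 and 19.8 CPM, 1.26-fold higher (1.10- to 1.44-fold). With plain CPM their log2 ratios of 0.24 and 0.32 became -0.06 and 0.02. The ratio of Lats2 to Lats1 reads was 0.77 and 0.81, a change of 1.06-fold (0.88- to 1.27-fold), and that of Yap1 to Lats1 was 12.3 and 12.4. In GENCODE M21 the gene model Gm49361 covers 42.4% of the exon bases of Lats2 on the same strand. Gm49361 was not among the listed genes, and the authors' gene models are not given. How such reads were counted is therefore unknown, which leaves the level of Lats2 uncertain.

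The 2 target genes differed unequally between the libraries. Ctgf (ENSMUSG00000019997, chr10:24315313-24318486) was at 193.6 CPM in wild type and 123.0 CPM in T/T, from 4624 and 3037 reads. It was 1.57-fold lower (1.5- to 1.65-fold), short of the 2-fold line, and its log2 ratio of -0.65 became -0.96 with plain CPM. Amotl2 (ENSMUSG00000032531, chr9:102620134-102635747) was at 163.3 and 186.3 CPM, 1.14-fold higher (1.09- to 1.19-fold), with a log2 ratio of 0.19 that became -0.0016, -0.05 and -0.12 under the 3 other scalings. The ratio of Ctgf to Amotl2 reads was 1.19 in wild type and 0.66 in T/T, 1.80-fold lower (1.69- to 1.91-fold). The antisense gene model Gm15270 covers 23.2% of the exon bases of Ctgf, and the strand setting is not given in the sources used here, so reads from either strand cannot be told apart there.

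Set against the co-activators, Ctgf was lower in T/T, and the changes for Amotl2 were small. Relative to Yap1 reads, Ctgf went from 0.77 to 0.41, 1.89-fold lower (1.79- to 2.01-fold), and relative to Wwtr1 it was 1.93-fold lower (1.80- to 2.08-fold). Amotl2 to Yap1 was 0.65 and 0.61, a change of 0.95-fold (0.897- to 1.001-fold), which just included no change. Amotl2 to Wwtr1 was 1.74 and 1.62, a change of 0.93-fold (0.867- to 0.998-fold), which just excluded it. The 8 transducers had log2 ratios from -1.08 (Tead1) to 1.90 (Tead4), with a median of 0.26, and the 2 targets had -0.65 and 0.19. Both targets lay inside the range of the transducers.

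**Figure D3:**
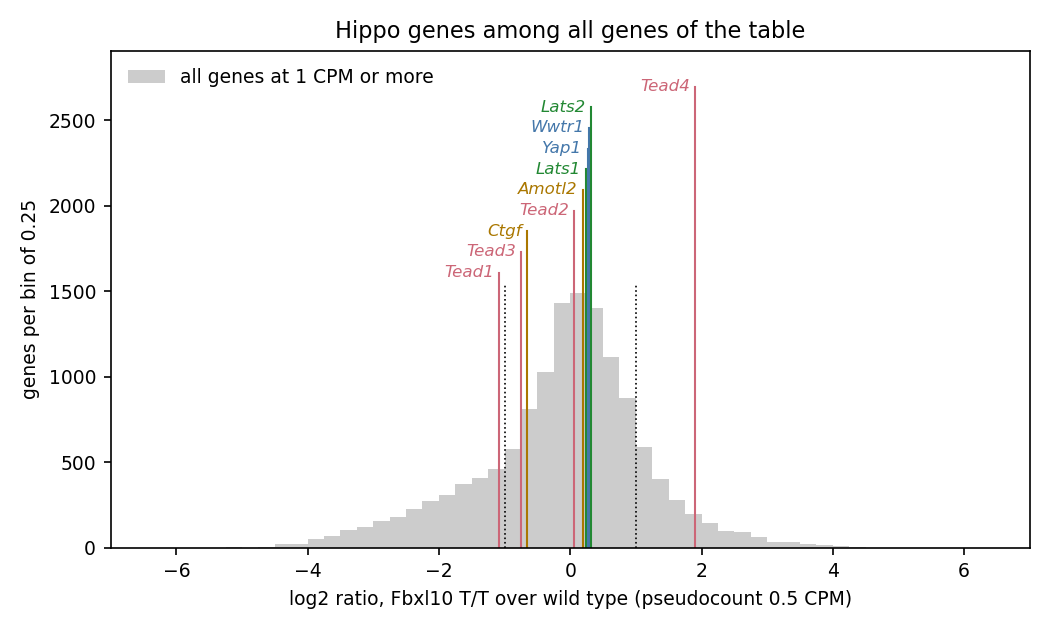
Histogram of the log2 ratio of Fbxl10 T/T over wild type for 13512 genes (grey, bins of 0.25), with a vertical line for each Hippo gene, coloured by role, and dotted lines at 2-fold. Lines have different heights only to separate the names. Tead4 (1.90) stands to the right of the 2-fold line and Tead1 (-1.08) just left of the other, and 6 members lie between 0.06 and 0.32.

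Per kb of exon, Ctgf had the highest level of the 10 members in both libraries, at 67.7 CPM per kb in wild type and 43.0 in T/T, and Tead3 the lowest. In wild type it was followed by Yap1 (27.2) and Amotl2 (26.0), whose counting intervals overlapped, and then by Tead2 (21.04) and Wwtr1 (19.7), which overlapped as well. In T/T the order after Ctgf was Tead4 (37.9), Yap1 (32.8), Amotl2 (29.6), Wwtr1 (24.1) and Tead2 (21.9). Lats1, Lats2 and Tead1 followed at 3.35, 2.85 and 2.84 CPM per kb, and each overlapped the next. By the longest coding transcript Yap1 ranked first in T/T and Ctgf second, and Lats1 ranked last in wild type, so these ranks depend on the length used.

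With the deposited scaling, the listed upstream and junction genes were as often 2-fold higher as lower. These lists are broad, and not every product acts upstream of LATS. Ptpn14, whose product binds YAP, is counted here and among the other target genes. Of 41 listed genes of the kinase module and of the junction and polarity list, 5 were at least 2-fold higher (12.2%, against 14.8% of all genes). Another 5 were lower (12.2%, against 20.6%) and 31 lay in between. With a minimum of 5 CPM, 5 were higher and 4 lower, where 16.6% and 15.8% of all genes were. The split of the 41 genes became 3 higher and 6 lower with the upper quartile and 2 and 6 with plain CPM. In the kinase module Mob1a, whose product activates LATS, was at 71.4 and 185.6 CPM (2.60-fold higher). Sav1, the scaffold gene of the MST kinases, was at 33.6 and 63.8 CPM (1.90-fold higher). Mob1b (11.3 and 19.7 CPM) and the MST2 gene Stk3 (4.19 and 7.62 CPM) were also above their wild-type levels. At the other end Wwc1, which encodes the LATS activator KIBRA, was at 97.9 and 33.7 CPM (2.90-fold lower). Nf2, which encodes the membrane-linked activator merlin, was at 241.6 and 124.4 CPM (1.94-fold lower). Map4k4 (260.3 and 173.5 CPM) and Stk38 (78.0 and 53.3 CPM) were less than 2-fold lower. Hence within 1 module an activator of LATS was at either end.

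Of the 20 junction and polarity genes, 4 were higher (20%, against 14.8% of all genes) and 4 lower (20%, against 20.6%), so neither share stood far from the background. Amot, the angiomotin gene and a paralogue of Amotl2, was 3.38-fold higher, at 74.2 and 250.8 CPM. Ptpn21 (57.9 and 140.4 CPM), the polarity gene Patj (27.7 and 65.5 CPM) and Limd1 (49.5 and 102.7 CPM), whose LIM protein inhibits LATS, were higher too. Ajuba, which encodes another LIM protein that inhibits LATS, was 2.95-fold lower, at 253.5 and 85.9 CPM. The apical polarity gene Crb3 was at 28.9 and 7.09 CPM and the atypical cadherin gene Dchs1 at 8.25 and 1.74 CPM. Rassf2, at 3.14 and 0.567 CPM, was the remaining lower gene. Scrib, a basolateral polarity gene, was at 194.5 and 120.3 CPM, 1.62-fold lower and short of the 2-fold line. Of the vestigial-like cofactors, which compete with YAP for TEAD, Vgll4 was listed, at 24.6 and 27.8 CPM, and Vgll1, Vgll2 and Vgll3 were not.

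Other genes used as YAP and TAZ targets differed in both directions. Of 19 listed, 8 were at least 2-fold higher (42.1%, against 14.8% of all genes), 4 lower (21.1%, against 20.6%) and 7 in between, with a median log2 ratio of 0.23. Foxf2, a forkhead factor gene, was 10.9-fold higher, at 4.02 and 43.8 CPM, and Crim1, which encodes a BMP-binding membrane protein, was 7.40-fold higher, at 33.1 and 245.0 CPM. F3, the tissue factor gene, was at 45.2 and 299.9 CPM and Myof at 46.0 and 178.7 CPM. Cyr61, whose product belongs to the same protein family as that of Ctgf, was at 170.9 and 480.1 CPM, 2.81-fold higher (2.71- to 2.91-fold). The ratio of Cyr61 to Ctgf reads therefore went from 0.88 to 3.90, 4.42-fold higher (4.17- to 4.69-fold). At the other end the stress-response gene Gadd45a was at 123.3 and 33.3 CPM, Fjx1 at 30.1 and 7.49 CPM, the kinase gene Nuak2 at 13.2 and 3.85 CPM and the receptor kinase gene Axl at 102.5 and 40.5 CPM.

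**Figure D4:**
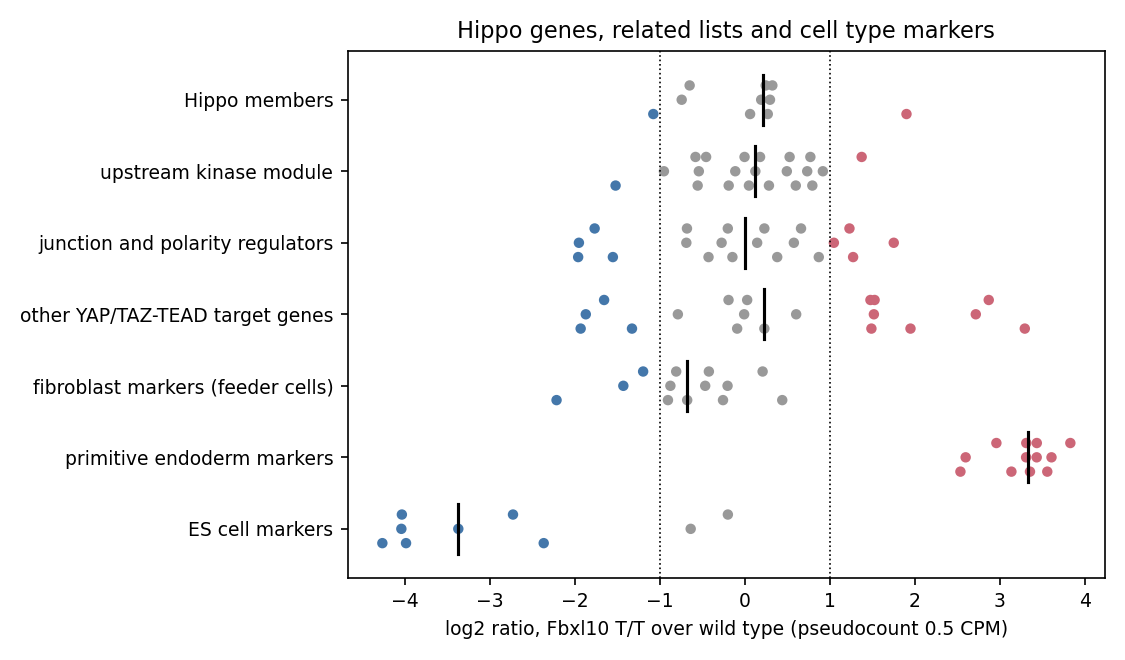
Log2 ratios of Fbxl10 T/T over wild type by list, 1 point per listed gene (red at least 2-fold higher, blue at least 2-fold lower, grey in between), with medians as black bars and dotted lines at 2-fold. The Hippo members and the kinase module and junction lists centre near 0 and the targets spread to both sides. All 12 primitive endoderm markers lie to the right and the ES cell markers to the left.

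Markers of other cells also differed between the libraries, and their part in the values of the Hippo genes was not tested. Ctgf and several other targets are also expressed in fibroblasts, which served as feeders. Of 13 listed fibroblast markers none was 2-fold higher (against 14.8% of all genes). Postn had the largest ratio, at 10.8 and 14.9 CPM, 1.37-fold higher (1.17- to 1.61-fold). Fbln2, Fstl1 and Loxl1 were lower (23.1%, against 20.6%), a share near that of all genes. The levels of the 13 summed to 1455 CPM in wild type against 753.9 CPM in T/T, 1.93-fold lower. Fbln2 (545.6 and 237.3 CPM) and Fstl1 (372.0 and 79.5 CPM) were the highest of the list in wild type, so these 2 genes weighed heavily in that sum. Col1a1 was at 101.6 and 117.3 CPM and Col1a2 at 167.5 and 145.2 CPM, and relative to their reads Ctgf was 1.82-fold lower (1.69- to 1.952-fold) and 1.36-fold lower (1.28- to 1.46-fold), respectively. These collagen genes were among the fibroblast markers that differed least, and the median log2 ratio of the list was -0.68, close to that of Ctgf (-0.65). Of 14 fibroblast markers 13 were listed, and none of the listed ones was at 0 in either library. The primitive endoderm markers with the largest ratios were Sox17 (35.8 and 514.7 CPM), Lama1 (823.3 and 10036 CPM) and Foxa2 (22.2 and 267.1 CPM). The median log2 ratio of that list was 3.33, above the ratio of Tead4 (1.90) and of every target gene, Foxf2 at 3.29 included. Single markers were not all above the targets. Sox7 (32.9 and 192.9 CPM), the lowest of the list at 2.53, was below F3 (2.72), Crim1 (2.87) and Foxf2. Of the ES cell markers, Tdgf1 was at 1128 and 58.0 CPM and Klf4 at 591.1 and 513.7 CPM.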

How the data were processed

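Polyadenylated RNA from 1 wild-type and 1 Fbxl10 T/T ES cell library was analysed from a single table. TopHat 1.4.1, HTSeq 0.5.3p9, edgeR and the mm9 build are named, per the submitters' processing notes, without their order. Not given in the sources used here: strandedness and gene models. Signal columns, as deposited, hold reads per 1000000 of an effective library size (columns sum to 887645 and 1098136, so not plain CPM). All values (100%) were whole multiples of 1 step within 0.01 reads, 0.0419 CPM in wild type and 0.0405 CPM in T/T, so whole reads were recovered. The authors' log2 ratios (wild type over T/T, deposited) matched those recomputed from the signal, as for Tead4 (-1.91 in both). Of 24706 rows, 11086 repeats were dropped.

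Log2 ratios use a pseudocount of 0.5 CPM, folds use none, and genes at 1 CPM or more in a library were counted at 2-fold. Intervals are exact Poisson (levels), Clopper-Pearson (folds) and conditional exact (ratios of 2 genes). PCR copies are not independent molecules, so these cover counting error only. In CPM, 3 reads came to 0.126 (wild type) and 0.122 (T/T). A count test of the reads, added later, compares the libraries and not the genotypes. It was a two-sided exact binomial test, Benjamini-Hochberg adjusted over all genes with a limit of 0.05. Of all 13620 genes, 5792 were higher in T/T and 5580 were lower, so most genes were called. That 9 of the 10 members were among them is therefore no result about the members. The members, lists and tests were chosen with earlier results of these data known. Named are all members, Kdm2b, all vestigial-like genes, up to 4 genes at either end of each other Hippo list and up to 3 at either end of each marker list, at 5 CPM or more. Cyr61, Ankrd1, Ptpn14, Rassf2 and Cd37 lie outside this rule and were named after their values were seen. Of 119 list entries 108 matched a symbol of the table, 5 an identifier through a table of gene names, and 6 were not listed. Exon lengths are those of GENCODE M21. The steps were tested on simulated reads. Other settings tried were a pseudocount of 0.1 or 1 CPM, a minimum of 0 or 5 CPM, 3 scalings, and thresholds of 1.5- and 4-fold. Software: scipy 1.17.1, pandas 2.3.3, numpy 2.4.6, matplotlib 3.10.9 and Python 3.11.15.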

Additional observations from a re-analysis of the deposited data

How the results depend on the processing

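No paired analysis was possible because each genotype had a single library, which also meant that leaving out a library gave no comparison. The members counted as higher (1) and lower (1) became 1 and 3 at 1.5-fold and 0 and 0 at 4-fold, and with plain CPM 2 were lower. The upstream and junction genes (5 higher, 5 lower) became 12 and 8 at 1.5-fold and 0 and 0 at 4-fold, and their higher genes numbered 3 with the upper quartile and 2 with plain CPM. The other targets (8 higher, 4 lower) became 3 and 0 at 4-fold. Among all 13512 genes, 3582 were higher and 3876 lower at 1.5-fold, and 519 were higher and 1229 lower at 4-fold. A changed threshold moves these counts by construction. The other pseudocounts and minimums, and the added binomial test, left the 6 counts of the Hippo lists within 1.5 times. Over 7 settings the log2 ratio of Tead4 ranged from 1.59 to 1.91, that of Tead1 from -1.38 to -1.07, that of Tead3 from -1.03 to -0.71 and that of Ctgf from -0.96 to -0.65. Each member rested on 167 reads or more per library, and the variation between cultures was not measured.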

Other observations

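A gene next to Tead2 differed where Tead2 did not. Cd37, a tetraspanin gene that shares 13 exon bases with Tead2 on the opposite strand in GENCODE M21, had 23.9 CPM in wild type against 1.22 CPM in T/T, whereas Tead2 was at 100.7 and 105.0 CPM. Cd37 was singled out after its values were seen.

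Among the other target genes, 13 had a RefSeq promoter sequence and 5 of these held the TEAD element in the 250 bases before a listed start site. The share over all windows was 12.6%, which is per window and not per gene. Of these 5, Cyr61, Ankrd1 (4.82 and 14.7 CPM) and Crim1 were higher in T/T, Axl was lower, and Ptpn14, a phosphatase gene whose product binds YAP, was at 174.9 and 204.9 CPM.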
